A study of Homo sapiens with 16 samples.

Results

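The genes described here encode receptors of the epidermal growth factor family, their ligands and 1 feedback inhibitor. They are the receptors *EGFR*, *ERBB2* and *ERBB3*, the ligands *EGF*, *TGFA*, *HBEGF*, *AREG*, *EREG* and *BTC*, and the inhibitor *ERRFI1*. They were chosen by name, as members of this family, and they are 10 of the 14108 genes listed in either of 2 expression tables. The first table had a value for 8 of the 10, with none for *AREG*, which encodes amphiregulin, and *EREG*. The second had a value for 9, with none for *AREG*.

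RNA was sequenced from LN229, an established human glioblastoma (GBM) line, in 2 experiments with 2 libraries per group. In the first experiment, LN229 cells were kept under the regular condition, in medium with serum and full nutrients, or under the ischemic condition, in which low glucose, low glutamine and low serum were combined with hypoxia. In the second experiment, cells in each condition were given the vehicle DMSO, the p38α inhibitor VX745 or the inhibitor MK25 of MK2, a kinase that p38 activates. This gave 8 groups and 16 libraries, which ask how ischemia changes expression and how far the p38-MK2 pathway takes part. Each inhibitor was used at its own concentration, and the time in the ischemic condition is not given in the labels. Every group comes from the same cell line, which the study's methods say was not authenticated, and nothing in the labels says that libraries of a group came from separate cultures. The p-values therefore measure the spread between these libraries, which may be technical.

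Between 20122017 and 37562668 reads per library lay on the listed genes. In the second experiment, the ischemic libraries held 27239609 to 37562668 reads and the regular libraries 20122017 to 30228774. The 10 most abundant genes took 6.13% to 6.45% of reads in the ischemic libraries of the first experiment and 4.48% to 4.65% in the regular ones. Of 7 glial and neural markers, all had a value in both tables, with *GFAP*, an astrocyte filament gene, at only 21 to 55 reads per library. Their summed level was 8037 to 8185 CPM in ischemic and 4467 to 4527 in regular libraries of the first experiment, and 5705 to 7026 and 3963 to 4347 in the second, and its part in the differences given here was not tested. Of 5 macrophage markers, the first table listed 1 and the second 2, without *PTPRC*, *CD14* or *AIF1*. Their summed level also moved with culture, at 36.2 to 41.4 CPM in ischemic and 22.2 to 23.3 in regular libraries of the first experiment and 53.7 to 65.6 and 30.8 to 39.6 in the second, and its part was not tested. Each table listed 1 of 3 epithelial markers (*KRT18*), and neither listed any of 3 endothelial markers. Within each group the libraries differed beyond counting noise (chi-square of 3.29 to 9.40 per gene). The RNA is from bulk cultures, so fewer cells with a transcript and less of it per cell cannot be told apart. Values are log2 normalized CPM (reads scaled to a common library size), and 3 reads, taken as the floor of detection, correspond to between −2.71 and −2.16. The tables were normalized separately, so groups are compared only within an experiment.

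Receptors of this family are tyrosine kinases that pair at the cell surface when a ligand binds, and the pair passes the signal to the RAS-ERK and PI3K-AKT pathways. The ligands are made as membrane-anchored precursors that are cut loose by proteases such as ADAM17. Signaling is limited by proteins that the pathway itself induces, among them ERRFI1, which binds the EGFR kinase domain. *EGFR* is one of the genes most often amplified in GBM.

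The upstream sequences of 5 members are shown because these are the genes that moved most in what follows. *ERRFI1*, *TGFA*, *EGFR* and *EREG* were higher in ischemic than in regular cells given DMSO. In ischemic cells, *HBEGF* moved in opposite directions with VX745 and with MK25. The RefSeq promoter table (GRCh38.p14) held 11 promoters for 9 of the 10 members, with none for *ERBB3*. Each line gives the 250 bases before an annotated start, 5′ to 3′ on the gene's strand, at chr1:8026310-8026559 (−) for *ERRFI1*, chr2:70553827-70554076 (−) for *TGFA*, chr7:55018767-55019016 (+) for *EGFR*, chr4:74364895-74365144 (+) for *EREG* and chr5:140346604-140346853 (−) for *HBEGF*. Capitals mark matches, on either strand, to ACGTG and GCGTG (cores of the hypoxia response element), TGANTCA (AP-1), TGACGTCA (CRE) and GGGCGG (GC box), where adjoining matches run together.
ERRFI1: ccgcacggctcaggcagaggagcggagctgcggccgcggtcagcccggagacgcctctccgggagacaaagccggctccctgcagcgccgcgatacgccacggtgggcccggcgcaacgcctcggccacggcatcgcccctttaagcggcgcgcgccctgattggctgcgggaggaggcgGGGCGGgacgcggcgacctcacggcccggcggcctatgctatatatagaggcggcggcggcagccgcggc
TGFA: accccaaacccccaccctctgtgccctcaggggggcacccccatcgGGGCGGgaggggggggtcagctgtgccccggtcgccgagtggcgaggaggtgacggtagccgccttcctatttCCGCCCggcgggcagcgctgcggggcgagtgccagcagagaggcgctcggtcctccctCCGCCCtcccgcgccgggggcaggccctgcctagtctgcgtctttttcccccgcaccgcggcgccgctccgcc
EGFR: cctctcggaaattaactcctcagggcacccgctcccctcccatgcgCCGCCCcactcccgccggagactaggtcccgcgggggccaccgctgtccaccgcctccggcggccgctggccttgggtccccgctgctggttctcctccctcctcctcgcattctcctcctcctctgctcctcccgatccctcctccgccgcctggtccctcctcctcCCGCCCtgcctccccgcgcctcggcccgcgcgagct
EREG: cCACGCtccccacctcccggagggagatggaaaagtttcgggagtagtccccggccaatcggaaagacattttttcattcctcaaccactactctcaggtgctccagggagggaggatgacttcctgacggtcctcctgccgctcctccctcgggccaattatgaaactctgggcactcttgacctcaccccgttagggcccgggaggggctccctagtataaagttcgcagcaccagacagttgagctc
HBEGF: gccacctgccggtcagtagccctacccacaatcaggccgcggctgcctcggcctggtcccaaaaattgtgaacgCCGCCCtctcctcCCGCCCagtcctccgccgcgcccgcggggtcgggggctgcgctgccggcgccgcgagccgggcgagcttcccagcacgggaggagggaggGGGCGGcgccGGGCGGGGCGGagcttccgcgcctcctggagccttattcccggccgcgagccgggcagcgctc

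The window of *HBEGF* held 5 matches to the GC box, that of *TGFA* 3, that of *EGFR* 2 and that of *ERRFI1* 1, and 42.64% of all 35116 promoters of this length held at least 1. The GC content was 76.4% in *HBEGF*, 75.6% in *TGFA*, 75.2% in *ERRFI1* and 73.6% in *EGFR*, against a median of 58.0% over all promoters. Neither hypoxia core lay in the 4 windows printed for these genes, and 43.21% of all promoters held one core or the other. The window of *EREG* held 1 GCGTG, as did that of a second annotated start of *TGFA* (chr2:70553447-70553696, minus strand). TGANTCA occurred in 6.57% of all promoters and TGACGTCA in 1.65%, and neither was in the 5 windows shown. A second annotated start of *EGFR*, inside the gene (chr7:55109589-55109838), had 2 TGANTCA matches in its window, which is printed for contrast.
EGFR, second start: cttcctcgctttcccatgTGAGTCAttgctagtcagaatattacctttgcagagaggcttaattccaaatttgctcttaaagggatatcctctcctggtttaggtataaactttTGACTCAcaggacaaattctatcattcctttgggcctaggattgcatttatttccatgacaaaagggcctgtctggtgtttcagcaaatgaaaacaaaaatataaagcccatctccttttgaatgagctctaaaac

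The ligand *TGFA*, which encodes transforming growth factor alpha, had the highest level of the family per kilobase of exon in all 8 groups. In cells given DMSO, its mean was 142 CPM per kb under the regular and 256 under the ischemic condition. *ERRFI1* came next in the 4 ischemic groups, at 119 CPM per kb with DMSO, but was below *ERBB3* in the regular groups, at 15.1 with DMSO. The receptors followed in the order *ERBB3*, *ERBB2*, *EGFR* in every group, at 26.4, 12 and 6.92 CPM per kb in ischemic cells given DMSO. The ligands *EGF*, *BTC* and *EREG* were lowest, none above 0.487 CPM per kb as a group mean.

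**Figure D1:**
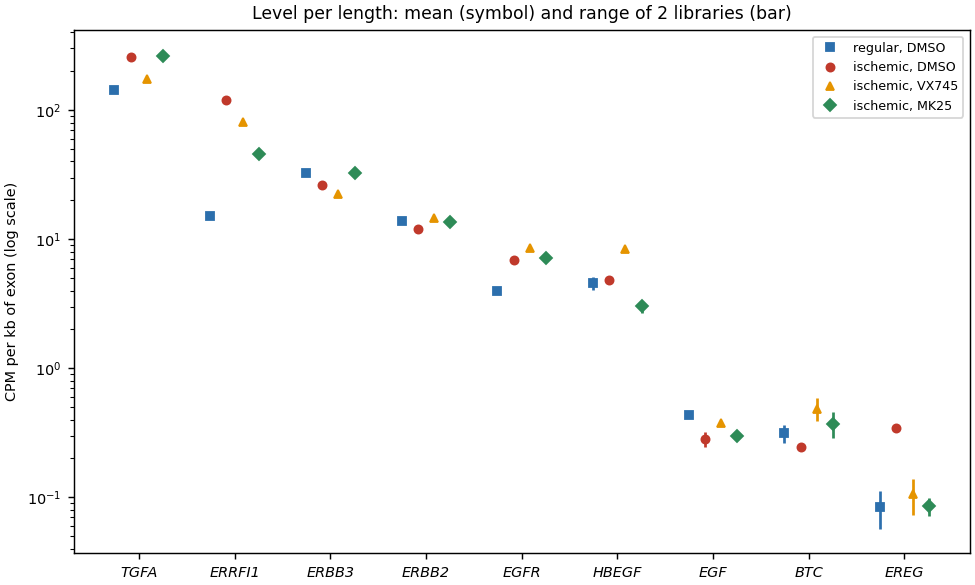
Level of each member in CPM per kilobase of exon (y axis, log scale) in 4 groups of the second experiment, as the mean of 2 libraries (symbol) with their range (bar). *TGFA* is highest in each group and *EREG* is lowest in 3 of the 4, and *ERRFI1* spans from 15.1 in regular to 119 in ischemic cells given DMSO.

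Not every step in this order was larger than the spread between libraries. *EGFR* and *HBEGF* overlapped in ischemic cells with VX745 and in regular cells with DMSO, and *EGF* and *BTC* overlapped in ischemic cells with DMSO or MK25 and in regular cells with VX745 or MK25. With the length of the longest transcript in place of all exons, 7 of 9 genes kept their place in ischemic cells with MK25, 5 of 9 in regular cells with DMSO and 7 of 9 in regular cells with MK25. On exons, *EGFR* shares 1.17% of its bases with the antisense gene *EGFR-AS1*, *ERBB2* 5.53% with *MIEN1* on the other strand, and *ERRFI1* 3.71% with an unnamed gene on the other strand. How reads from such bases were assigned is not stated.

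In the first experiment, 3 of the 8 listed members were higher and 4 were lower under the ischemic condition. *ERRFI1*, *TGFA* and *EGFR* rose, and *HBEGF*, *EGF*, *ERBB3* and *ERBB2* fell. At an adjusted p under 0.05 by limma, 35.2% of all genes were called higher and 35.2% lower, so being called was itself common in this comparison. The median difference over the 8 members was 0.18 on the log2 scale, against −0.01 over all genes.

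With DMSO in the second experiment, 4 of 9 listed members were higher in ischemic cells and 3 were lower, where 34.4% of all genes were called higher and 35.2% lower. *ERRFI1*, *EREG*, *TGFA* and *EGFR* rose, and *EGF*, *ERBB3* and *ERBB2* fell. *HBEGF* and *BTC* did not pass the test. The median over the 9 members was 0.10, against −0.01 over all genes.

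**Figure D2:**
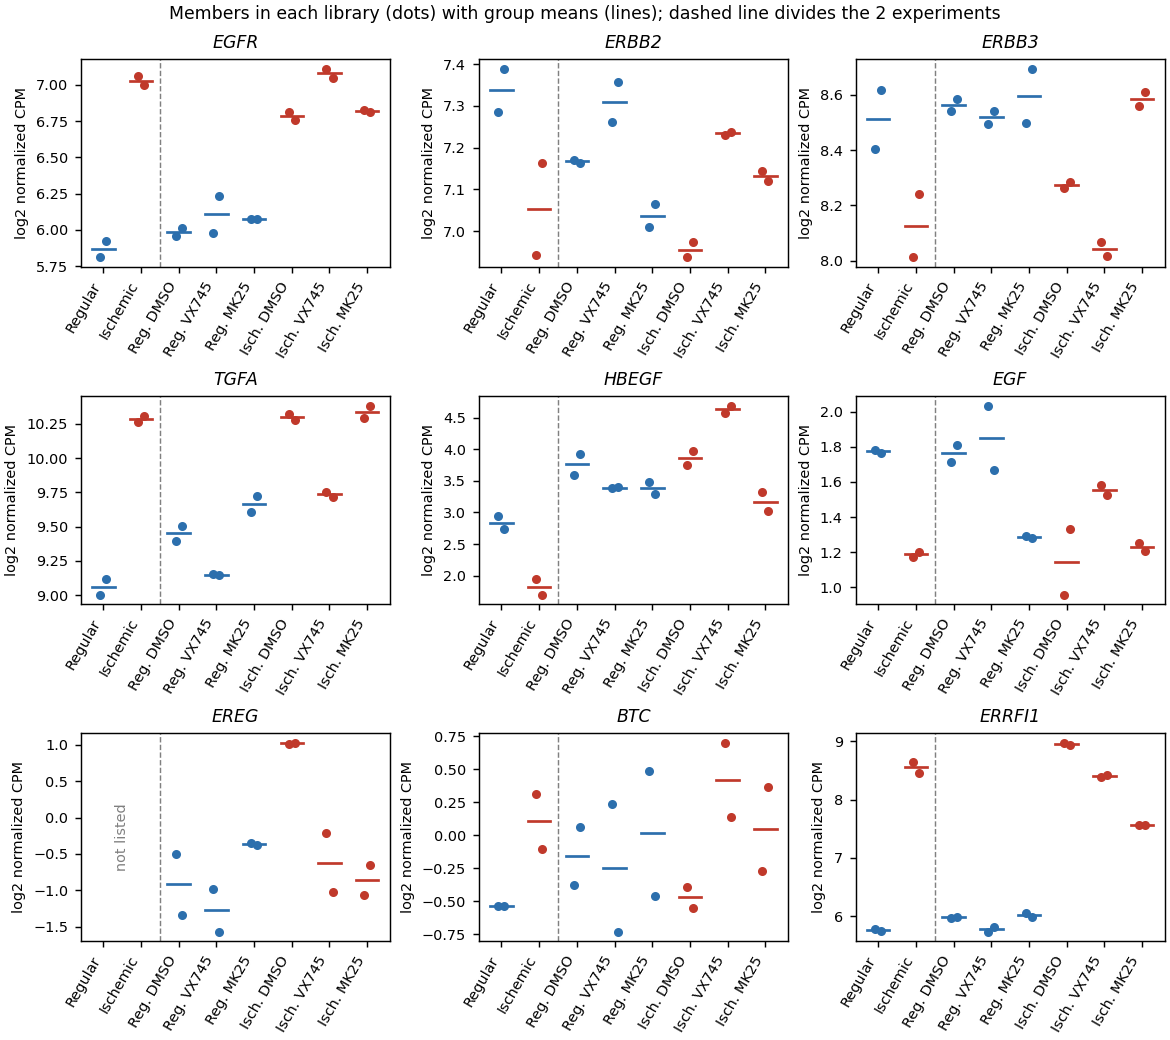
Log2 normalized CPM (y axis, own scale in each panel) of 9 members in each library (dots) with the mean of the 2 libraries of a group (lines), blue for regular and red for ischemic culture, and a dashed line between the 2 experiments. *ERRFI1* and *EGFR* are higher in each ischemic library than in each regular library of the same experiment.

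*EGFR*, the receptor for all 6 ligands (identifier 1956, chromosome 7, 55019017 to 55211628 of GRCh38.p14), stood at 7.06 and 7.0 log2 CPM in ischemic and 5.81 and 5.92 in regular libraries of the first experiment. With DMSO it stood at 6.81 and 6.76 in ischemic and 5.96 and 6.01 in regular libraries. The ischemic libraries were above the regular ones in both experiments without overlap. The difference was 1.17 (SE 0.07, adjusted p = 3.03e-08) in the first and 0.80 (SE 0.07, adjusted p = 1.39e-08) in the second, which is a fold change of 2.24 and 1.74.

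The other receptors moved the opposite way, by less. *ERBB3*, which has a weak kinase of its own and recruits PI3K (identifier 2065, chromosome 12, 56080108 to 56103505), read 8.01 and 8.24 in ischemic and 8.40 and 8.62 in regular libraries, and 8.26 and 8.28 against 8.54 and 8.58 with DMSO. The groups did not overlap in either experiment. It fell by 0.39 (SE 0.09, adjusted p = 0.00209) and by 0.29 (SE 0.06, adjusted p = 0.000379), the latter by 0.54 after quantile normalization. *ERBB2*, which has no known ligand and pairs with the other receptors (identifier 2064, chromosome 17, 39688094 to 39728658), read 6.94 and 7.16 in ischemic and 7.28 and 7.39 in regular libraries, and 6.94 and 6.97 against 7.17 and 7.16 with DMSO. These groups did not overlap either. The falls were 0.28 (SE 0.08) and 0.21 (SE 0.05), that is a log2 difference of −0.28 (adjusted p = 0.0078) and −0.21 (adjusted p = 0.00175). The limma call for *ERBB2* in the first experiment was lost with no variance trend (−0.28, adjusted p = 0.0747). It was also lost without ischemic replicate 1 (−0.17) or regular replicate 2 (−0.23).

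*TGFA* (identifier 7039, chromosome 2, 70447284 to 70553826) read 10.26 and 10.31 in ischemic and 9.01 and 9.12 in regular libraries of the first experiment. With DMSO it read 10.32 and 10.28 in ischemic and 9.39 and 9.51 in regular libraries. Each ischemic library was therefore above each regular library. The rise was 1.22 (SE 0.07, adjusted p = 1.65e-08) and 0.85 (SE 0.06, adjusted p = 1.09e-09), a fold change of 2.33 and 1.80. After quantile normalization the rise with DMSO was 0.39 and still passed the test.

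*EREG*, which encodes epiregulin, a ligand of EGFR and of ERBB4 (identifier 2069, chromosome 4, 74365145 to 74388749), was near the limit of detection. In the second experiment it had 48 and 58 reads in ischemic libraries given DMSO, 1.02 and 1.03 log2 CPM, and 8 to 20 reads, −1.34 and −0.50, in regular ones. It was thus higher in ischemic cells given DMSO, by 1.94 (SE 0.41, adjusted p = 0.000412), a fold change of 3.85. The 2 ischemic libraries with DMSO were the highest of all 12 libraries of that experiment.

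*HBEGF*, the heparin-binding ligand (identifier 1839, chromosome 5, 140332843 to 140346603), did not move alike in the 2 experiments. In the first it read 1.94 and 1.70 in ischemic and 2.94 and 2.73 in regular libraries, a difference of −1.02 (SE 0.17, adjusted p = 0.000149) with no overlap. With DMSO it read 3.76 and 3.97 against 3.60 and 3.93, which overlap, a difference of 0.10 with a 95% interval of −0.17 to 0.37 (adjusted p = 0.488). The difference between the experiments was not tested, since the tables were normalized separately and only the second experiment contained the vehicle.

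*EGF*, the founding ligand (identifier 1950, chromosome 4, 109912883 to 110013766), had 46 to 102 reads per library. It read 1.17 and 1.20 in ischemic and 1.78 and 1.77 in regular libraries, and 0.96 and 1.33 against 1.71 and 1.81 with DMSO, without overlap in either experiment. It fell by 0.59 (SE 0.19, adjusted p = 0.0165) and by 0.62 (SE 0.19, adjusted p = 0.00837). The call was lost without regular replicate 1 (−0.58, adjusted p = 0.0963) or 2 (−0.60, adjusted p = 0.0857) in the first experiment, and without the first ischemic library with DMSO (−0.43, adjusted p = 0.107) in the second.

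*BTC*, which encodes betacellulin (identifier 685, chromosome 4, 74744759 to 74794523), had 12 to 51 reads per library and passed the test in 0 of the 11 comparisons by limma and in 0 by voom on the recovered reads. It read 0.31 and −0.10 in ischemic and −0.54 and −0.54 in regular libraries of the first experiment, a difference of 0.64 with a 95% interval of −0.08 to 1.36. With no variance trend the same difference passed (adjusted p = 0.0202). By limma, 1 of the 11 comparisons had an unadjusted p under 0.05, VX745 against DMSO in ischemic cells at 0.89 (adjusted p = 0.108), which passed when only the compared groups were fitted (adjusted p = 0.0385). Without the first regular VX745 library, ischemia with VX745 passed at 1.15 (adjusted p = 0.0456).

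*ERRFI1*, also known as MIG6, had the largest difference of the listed members between the cultures in both experiments (identifier 54206, chromosome 1, 8011727 to 8026309). It read 8.65 and 8.46 in ischemic and 5.78 and 5.74 in regular libraries, and 8.98 and 8.94 against 5.98 and 5.99 with DMSO. The gap between the cultures was many times the spread between libraries in both experiments. The difference was 2.79 (SE 0.08, adjusted p = 1.84e-11), a fold change of 6.93, and 2.97 (SE 0.05, adjusted p = 5.33e-18), a fold change of 7.86.

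**Figure D3:**
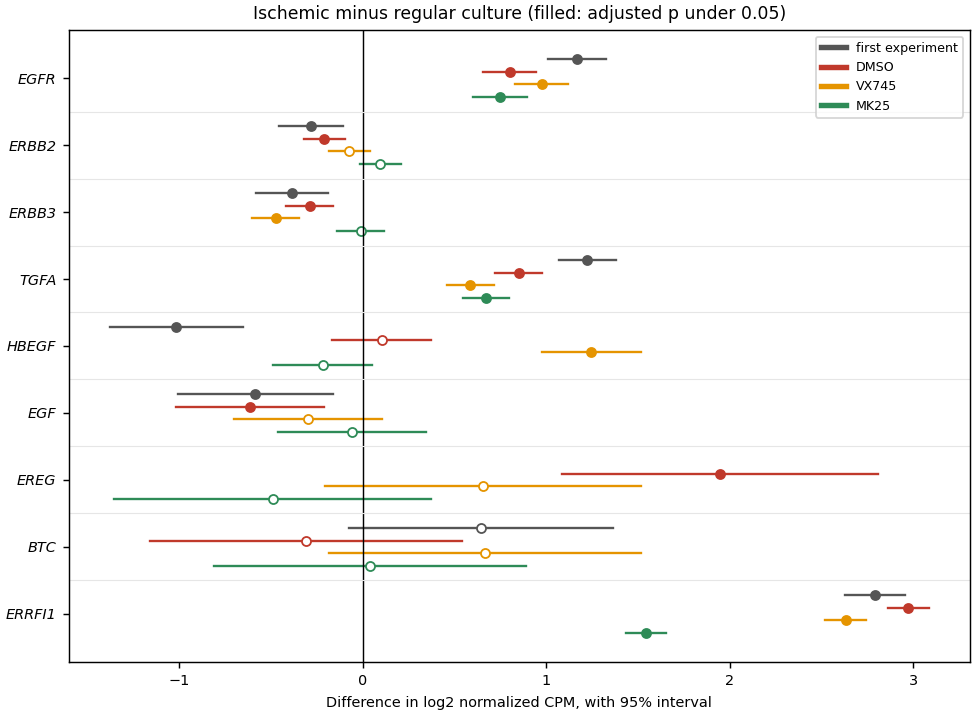
Difference between ischemic and regular culture in log2 normalized CPM (x axis, with 95% intervals) for each member in the first experiment and in cells given DMSO, VX745 or MK25. *ERRFI1* lies at 2.79, 2.97, 2.63 and 1.54, and *HBEGF* lies at −1.02, 0.10, 1.25 and −0.22.

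The same comparison was made within each inhibitor. With VX745, 5 of the 9 members differed between ischemic and regular cells, where 66.6% of all genes did. *ERRFI1* (2.63), *HBEGF* (1.25), *EGFR* (0.97) and *TGFA* (0.59) were higher, and *ERBB3* was lower (−0.48). With MK25, 3 of the 9 differed, *ERRFI1* (1.54), *EGFR* (0.75) and *TGFA* (0.67), all higher, where 67.2% of all genes differed. In the presence of MK25, *ERBB2* was at 0.09 (95% interval −0.02 to 0.21) and *ERBB3* at −0.01 (−0.14 to 0.12).

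VX745 changed 7 of the 9 members in ischemic cells. *HBEGF*, *EGFR* and *ERBB2* rose and *EREG*, *TGFA*, *ERRFI1* and *ERBB3* fell, that is 3 higher and 4 lower, where 14% of all genes were called higher and 14.9% lower. MK25 changed 5 of the 9, with *ERBB3* and *ERBB2* higher and *EREG*, *ERRFI1* and *HBEGF* lower, where 19.8% of all genes were called higher and 22% lower. Both inhibitors were compared with the same DMSO libraries. The median over the members was 0.28 with VX745 and 0.04 with MK25, against 0.00 over all genes in each.

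*HBEGF* moved in opposite directions with the inhibitors in ischemic cells. Its libraries read 4.59 and 4.70 with VX745, 3.76 and 3.97 with DMSO and 3.33 and 3.02 with MK25, and none of these groups overlapped. The rise with VX745 was 0.78 (SE 0.13, adjusted p = 0.000295), a fold change of 1.71. The fall with MK25 was a difference of −0.69 (SE 0.13, adjusted p = 0.000371).

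*ERRFI1* fell with both. It read 8.39 and 8.42 with VX745 and 7.57 and 7.56 with MK25, against 8.98 and 8.94 with DMSO, so each inhibitor group lay below DMSO without overlap. The difference was −0.55 (SE 0.05, adjusted p = 1.62e-06) with VX745 and −1.39 (SE 0.05, adjusted p = 1.66e-11) with MK25. In ischemic cells given MK25 it was nevertheless above every regular library, which read 5.74 to 6.06.

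*EREG* also fell with both, from 48 and 58 reads to 13 to 26 with VX745 and 15 to 20 with MK25. On the log2 scale it read −0.21 and −1.03 with VX745 and −1.06 and −0.65 with MK25, all below the 1.02 and 1.03 of DMSO. The difference was −1.65 (SE 0.41, adjusted p = 0.00637) with VX745 and −1.88 (SE 0.41, adjusted p = 0.00145) with MK25. Without the second VX745 library the first of these was −1.24 (adjusted p = 0.0951).

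*TGFA* fell with VX745. It read 9.76 and 9.71 with VX745, below the 10.32 and 10.28 of DMSO, and 10.29 and 10.38 with MK25, which overlapped DMSO. The difference was −0.57 (SE 0.06, adjusted p = 4.68e-06) with VX745 and 0.04 (95% interval −0.09 to 0.16, adjusted p = 0.657) with MK25. Quantile normalization moved these to −0.28 and 0.35, and the latter then passed the test (adjusted p = 0.000834), so the direction with VX745 held and the value with MK25 depended on the scaling.

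Of the receptors, *EGFR* read 7.11 and 7.05 with VX745, above the 6.81 and 6.76 of DMSO, and 6.83 and 6.82 with MK25. Its rise with VX745 was 0.30 (SE 0.07, adjusted p = 0.00414), and without the first VX745 library 0.26 (adjusted p = 0.0542). With MK25 it was at 0.03 (95% interval −0.11 to 0.18).

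*ERBB3* moved oppositely with the inhibitors, reading 8.07 and 8.02 with VX745, 8.26 and 8.28 with DMSO and 8.56 and 8.61 with MK25. The 3 groups did not overlap. The difference was −0.23 (SE 0.06, adjusted p = 0.00875) with VX745 and 0.31 (SE 0.06, adjusted p = 0.000601) with MK25. The fall with VX745 was −0.09 (adjusted p = 0.295) after quantile normalization, −0.20 (adjusted p = 0.0903) without the second VX745 library and −0.22 (adjusted p = 0.058) without the second DMSO library. *ERBB2* rose with both, reading 7.23 and 7.24 with VX745, 7.14 and 7.12 with MK25 and 6.94 and 6.97 with DMSO. Its difference was 0.28 (SE 0.05, adjusted p = 0.000929) and 0.18 (SE 0.05, adjusted p = 0.013), and the second was lost without the first MK25 library (0.16, adjusted p = 0.072) or the first DMSO library (0.16, adjusted p = 0.0946).

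*EGF* and *BTC* did not pass the test with either inhibitor. *EGF* read 1.58 and 1.52 with VX745 and 1.25 and 1.21 with MK25, a difference from DMSO of 0.41 (95% interval 0.00 to 0.81) and 0.08 (−0.32 to 0.49). *BTC* read 0.70 and 0.14 with VX745 and −0.27 and 0.37 with MK25, above the −0.39 and −0.55 of DMSO in each library, at 0.89 (0.04 to 1.74) and 0.52 (−0.33 to 1.37).

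**Figure D4:**
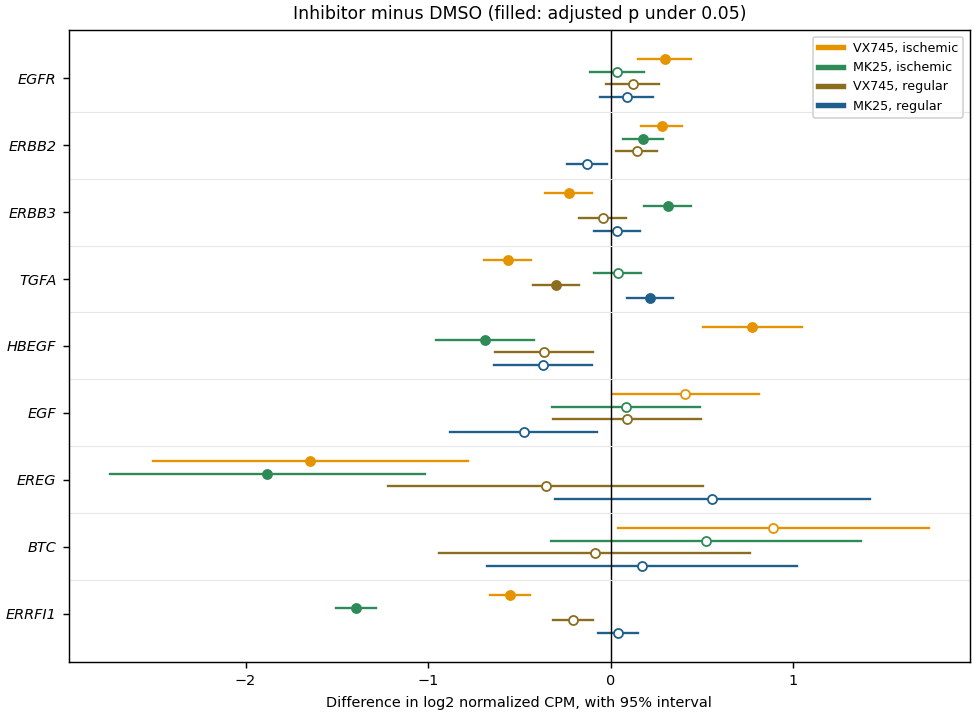
Difference between each inhibitor and DMSO in log2 normalized CPM (x axis, with 95% intervals) in ischemic and in regular culture, with filled points for an adjusted p under 0.05. In ischemic culture *HBEGF* lies at 0.78 with VX745 and −0.69 with MK25, and *ERRFI1* lies at −0.55 and −1.39.

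In regular cells each inhibitor changed 1 of the 9 members, *TGFA* in both cases. With VX745 it read 9.15 and 9.15 against 9.39 and 9.51 with DMSO, and with MK25 9.61 and 9.73. The difference was −0.30 (SE 0.06, adjusted p = 0.0396) with VX745, where 0.335% of all genes were called, and 0.21 (SE 0.06, adjusted p = 0.027) with MK25, where 12.2% were. Both calls were lost at a fold change of at least 1.5. The first was also lost without either VX745 library (−0.30, adjusted p = 0.127 and 0.17) and without the second DMSO library (−0.25, adjusted p = 0.292). The second was also lost without the second MK25 library (0.15, adjusted p = 0.17) and without the first DMSO library (0.16, adjusted p = 0.126).

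*ERRFI1* in regular cells read 5.74 and 5.81 with VX745, 6.06 and 5.99 with MK25 and 5.98 and 5.99 with DMSO. The differences were −0.21 (95% interval −0.32 to −0.10, adjusted p = 0.101) and 0.04 (−0.07 to 0.15). *HBEGF* read 3.38 and 3.41 with VX745 and 3.49 and 3.29 with MK25, all below the 3.60 and 3.93 of DMSO, at −0.37 in each case (adjusted p = 0.193 and 0.0663). Without the first regular DMSO library the value of *HBEGF* with MK25 was −0.54 (adjusted p = 0.0214).

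Whether an inhibitor acted differently in the 2 cultures was tested as an interaction, the difference in ischemic cells minus that in regular cells. For VX745 it passed for 2 of the 9 members, where 11.8% of all genes did. *HBEGF* was at 1.14 (SE 0.18, adjusted p = 0.00113), with a difference of 0.78 in ischemic and −0.37 in regular cells. *ERRFI1* was at −0.34 (SE 0.07, adjusted p = 0.00763), and at −0.19 (adjusted p = 0.138) after quantile normalization or −0.33 (adjusted p = 0.0511) without the first ischemic VX745 library. *TGFA* was at −0.26 (adjusted p = 0.0532).

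For MK25 the interaction passed for 4 of the 9, where 24.4% of all genes did. *EREG* was at −2.44 (SE 0.58, adjusted p = 0.0055), with −1.88 in ischemic and 0.56 in regular cells. *ERRFI1* was at −1.43 (SE 0.07, adjusted p = 1.29e-09), with −1.39 and 0.04. *ERBB2* was at 0.31 (SE 0.07, adjusted p = 0.00655), with 0.18 and −0.13. *ERBB3* was at 0.28 (SE 0.09, adjusted p = 0.0247), and this call was lost with no variance trend (adjusted p = 0.0843). It was also lost without any 1 of 5 libraries. The value was 0.18 without the first regular MK25 library and 0.25 without the second ischemic MK25 library. It was 0.27 and 0.29 without the first and second ischemic DMSO libraries, and 0.26 without the second regular DMSO library.

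Set directly against VX745 in ischemic cells, MK25 differed for 5 of the 9 members, where 18.4% of all genes differed. *HBEGF* (−1.47, SE 0.13), *ERRFI1* (−0.84, SE 0.05) and *EGFR* (−0.26, SE 0.07) were lower with MK25, and *TGFA* (0.60, SE 0.06) and *ERBB3* (0.54, SE 0.06) were higher. *EREG*, which fell with each inhibitor, was at −0.24 with a 95% interval of −1.10 to 0.63. The adjusted p was 2.76e-07 for *HBEGF* and 0.0127 for *EGFR*, and the latter was 0.0663 with no variance trend. The *EGFR* call was also lost without the first MK25, second MK25 or first VX745 library, at −0.27, −0.26 and −0.23.

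The other genes of the pathway were taken from 6 lists, with 56 distinct genes listed in the first table and 57 in the second. Of these, 29 were higher and 16 lower in ischemic cells in the first experiment, where 35.2% of all genes were called in each direction, and 26 and 15 with DMSO in the second, where 34.4% were higher and 35.2% lower. The median difference was 0.25 and 0.16, against −0.01 over all genes in each. Under the ischemic condition, 9 of 57 were higher and 13 lower with VX745, where 14% and 14.9% of all genes were, and 11 were higher and 16 lower with MK25, where 19.8% and 22% were.

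**Figure D5:**
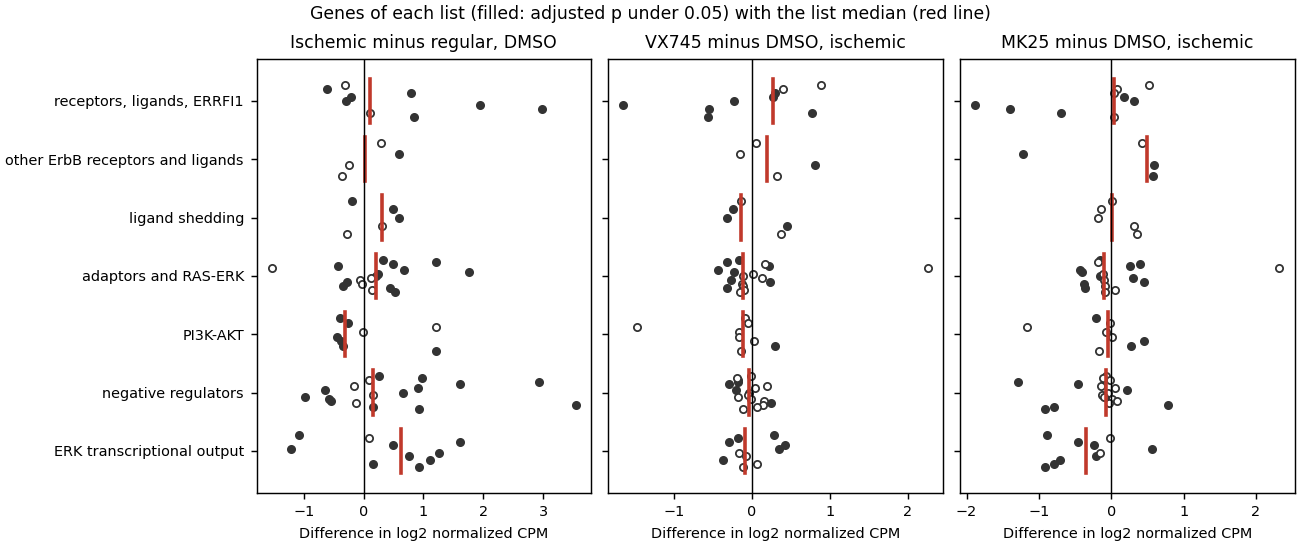
Difference in log2 normalized CPM (x axis) of each gene of the members and of the 6 pathway lists (rows), with filled points for an adjusted p under 0.05 and a red line at the list's median. With MK25 in ischemic cells, 7 of 10 genes of ERK transcriptional output are lower and 1 is higher. Over all genes, 22% are lower and 19.8% higher in that comparison.

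Among other receptors and ligands of the family, 4 of 6 had a value, with none for *NRG3* and *EPGN*. In the first experiment *ERBB4*, the fourth receptor (0.93), and the neuregulin *NRG1* (0.21) rose and *NRG2* fell (−0.71), and with DMSO 1 of 4 passed, *NRG1* (0.60). In ischemic cells, *NRG1*, a ligand of ERBB3 and ERBB4, stood at 4.97 and 4.98 with DMSO, 4.82 and 4.83 with VX745 and at 3.72 and 3.80 with MK25. The MK25 libraries were the lowest, with a difference of −1.21 (SE 0.10, adjusted p = 6e-08), while the VX745 difference of −0.15 did not pass. *NRG2* rose with VX745 (0.82) and MK25 (0.59), and *NRG4* rose with MK25 (0.58).

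Of 5 genes of ligand shedding, 3 rose and 1 fell under ischemia in the first experiment, against 35.2% of all genes each way. With DMSO 2 rose and 1 fell, where 34.4% of all genes were higher and 35.2% lower. *ADAM17*, the main protease that frees TGFA, HBEGF, AREG and EREG, rose by 0.93 (SE 0.07) and 0.50 (SE 0.06). *RHBDF1*, which encodes a rhomboid-like partner of ADAM17, rose by 0.35 and 0.59. With VX745 in ischemic cells *RHBDF2* rose (0.46) and *RHBDF1* (−0.32) and *ADAM17* (−0.23) fell, where 14% of all genes were higher and 14.9% lower. With MK25 limma called 0 of the 5, where 19.8% of all genes were called higher and 22% lower. Of the 5, 2 had an unadjusted p under 0.05, and voom on the recovered reads also called 0.

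Of the adaptors and the RAS-ERK cascade, 9 of 16 rose and 3 fell in the first experiment, against 35.2% of all genes each way. With DMSO 9 of 17 rose and 3 fell, where 34.4% of all genes were higher and 35.2% lower. The kinase genes *MAP2K1* (1.5 and 1.77) and *BRAF* (1.5 and 1.21) rose in both, and *SOS2*, which encodes a RAS activator, rose by 1.44 in the first experiment. In ischemic cells 2 rose and 6 fell with VX745, where 14% of all genes were higher and 14.9% lower. Under MK25 4 rose and 6 fell, where 19.8% of all genes were higher and 22% lower. *BRAF* (−0.32) and *SHC1* (−0.31) fell with VX745. With MK25 *MAP2K1* fell (−0.41) and *PLCG1*, which encodes a phospholipase, rose (0.45). *HRAS* had no value in the first table and between 0 and 133 reads per library in the second, with up to 133 reads in one library of a group and 1 in the other.

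Of 8 genes of PI3K-AKT signaling, 3 rose and 4 fell in the first experiment, against 35.2% of all genes each way. With DMSO 1 rose and 5 fell, where 34.4% of all genes were higher and 35.2% lower. *AKT1*, which encodes a kinase downstream of PI3K, fell in both (−0.68 and −0.39), and *PIK3CB*, which encodes a catalytic subunit, fell with DMSO (−0.44). In ischemic cells *PIK3R2*, a regulatory subunit gene, rose with VX745 (0.29) and MK25 (0.27). With MK25 *PIK3R1* rose (0.46) and *AKT1* fell (−0.21).

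Of 17 negative regulators, 8 rose and 5 fell in the first experiment, against 35.2% of all genes each way. With DMSO 9 rose and 4 fell, where 34.4% of all genes were higher and 35.2% lower. *SPRY1*, which encodes a Sprouty inhibitor of RAS-ERK signaling, rose by 3.29 (SE 0.14) and 3.55 (SE 0.10), against 2.79 and 2.97 for *ERRFI1*. *DUSP5*, which encodes a phosphatase of nuclear ERK, rose by 1.52 and 2.93. In ischemic cells 1 rose and 4 fell with VX745, none by more than 0.29, against 14% of all genes higher and 14.9% lower. Under MK25 2 rose and 4 fell, where 19.8% of all genes were higher and 22% lower. The falls with MK25 were led by *DUSP5* (−1.29, SE 0.07), *SPRY4* (−0.92, SE 0.07) and *SPRY2* (−0.79, SE 0.06). *SPRY1* rose with MK25 by 0.78 (SE 0.10, adjusted p = 1.7e-05), with 5.53 and 5.55 against 4.69 and 4.84 with DMSO. Like *ERRFI1*, *DUSP5* remained above the regular libraries, at 5.97 and 5.99 with MK25 in ischemic cells, against 7.27 and 7.27 with DMSO and 4.27 to 4.5 in regular cells.

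Taken as transcriptional output of ERK were 10 genes, 4 of which are also negative regulators. In the first experiment 5 rose and 4 fell, where 35.2% of all genes were called in each direction. With DMSO 7 rose and 2 fell, where 34.4% of all genes were higher and 35.2% lower. *ETV4*, a transcription factor gene, rose in both (1.07 and 1.27) and the ephrin receptor gene *EPHA4* fell in both (−1.13 and −1.21). *CCND1*, which encodes cyclin D1, fell in the first experiment (−1.55) and also between the cultures with MK25 in the second (−1.74). The interaction of MK25 with culture was −0.66 (SE 0.08) for *CCND1*, so it fell with DMSO as well, by less than with MK25. *DUSP6* rose by 1.61 with DMSO. In ischemic cells 3 rose and 3 fell with VX745, where 14% of all genes were higher and 14.9% lower. *EPHA2* (0.42), *PHLDA1* (−0.37) and *EPHA4* (0.35) had the largest differences with VX745. With MK25 1 rose and 7 fell, *CCND1* among the latter (−0.89), where 19.8% of all genes were higher and 22% lower. The median of this list with MK25 was −0.36, against 0.00 over all genes.

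In regular cells limma called 1 of the 57 genes with VX745, *PHLDA1* (−0.42), where 0.335% of all genes were called, and 17 had an unadjusted p under 0.05. With MK25 it called 8, where 12.2% of all genes were called, of which 3 were higher and 5 lower, with *SPRY1* (1.3) and *MAP2K1* (0.41) the highest. The interaction of MK25 with culture passed for 18 of the 57, where 24.4% of all genes did, with *DUSP5* (−1.38), *NRG1* (−1.14), *SPRY4* (−0.87) and *MAP2K1* (−0.82) among them, and that of VX745 for 8, where 11.8% did, with *EPHA2* (0.62) and *CCND1* (0.46) among them.

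The genes most like a member across the 12 libraries of the second experiment were looked up among 10052 genes with a mean of at least 3 log2 CPM. For *ERRFI1* they were *MARS1* (Pearson r 0.997), *DUSP5* (0.995) and *ETS1* (0.995), and 1497 genes had an r over 0.9. For *EGFR* they were *AHNAK* (0.994), *TMCO4* (0.991) and *SYTL2* (0.991), with 1462 genes over 0.9. The libraries share their culture and treatment groups, so such values are common among genes that differ between the cultures. For *HBEGF* they were *MB21D2* (0.957), *BCAR3* (0.953) and *RFTN1* (0.940), and 8 genes were over 0.9.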

How the data were processed

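RNA from 16 LN229 libraries was read from 2 tables, with groups taken from the labels. In Galaxy, the authors trimmed reads, aligned with HISAT2 (GRCh38) and, per the labels, used edgeR, and they deposited log2 normalized CPM with an offset of 1.49 to 2.62 reads. The versions and the counting program are not given in the sources used here. The offset shrinks the differences of weakly expressed genes. The deposited log2 values were used without further normalization. Whole reads per gene were recovered from their steps for depth and for a voom fit. The 95% intervals are limma's and rest on the spread between libraries. The floor of 3 reads covers counting error only, since reads carry no molecular identifiers.

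Groups were compared with limma (version 3.58.1 in R 4.3.3), with 1 mean per group, a variance trend over expression, two-sided p-values and Benjamini-Hochberg adjustment over all genes of a table. A gene was called at an adjusted p under 0.05 in each of 11 comparisons. The test was checked on simulated data. The study's count test was not run. The deposited values are log2 normalized CPM, and the recovered reads were fitted by voom instead. The alternatives were fold change thresholds of 1.5 and 2, median centring, quantile normalization, genes with a mean of at least 0 log2 CPM only, no variance trend, voom, a replicate block, a fit to the compared groups alone, and each library left out in turn. For levels, the alternative was the length of the longest transcript.

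Of the gene identifiers, 99.4% and 99.31% were matched to a RefSeq symbol. All members were named, and of each pathway list the 3 largest changes among called genes at most, plus any count of 5 or fewer where given. Some genes that this rule selects are not reported here. The members and the lists were chosen with earlier results of these data known. *DUSP5*, *NRG1*, *HRAS* and *SPRY1* were described further after their values were seen. Protein sequences were not used here. Figures were made with matplotlib 3.10.9 in Python 3.11.15.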

Additional observations from a re-analysis of the deposited data

Results flagged for a closer look

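The response to an inhibitor differed between ischemic and regular culture, by the interaction term of limma, in 6 cases. For VX745 these were *HBEGF* at 1.14, with 0.78 in ischemic and −0.37 in regular cells, and *ERRFI1* at −0.34, with −0.55 and −0.21. For MK25 these were *EREG* at −2.44, with −1.88 and 0.56, *ERRFI1* at −1.43, with −1.39 and 0.04, *ERBB2* at 0.31, with 0.18 and −0.13, and *ERBB3* at 0.28, with 0.31 and 0.03. *EREG* rests on 6 to 58 reads per library. In the second experiment depth differed with culture, 27239609 to 37562668 reads in ischemic and 20122017 to 30228774 in regular libraries, and its part in these differences was not tested.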

How the results depend on the processing

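Of 98 differences of a member in a comparison, 47 passed the test. Of these, 35 kept their call under each alternative run for them other than the fold change thresholds, 12 lost it under at least 1, and 0 turned their direction, while 10 others passed somewhere. Scaling moved the median of all genes by at most 0.07 (log2). The count of changed members fell most with a fold change threshold, by construction. With a fold change of at least 2 it was 4, 2, 2 and 1 for ischemia in the first experiment, with DMSO, with VX745 and with MK25, 1 and 2 for VX745 and MK25 in ischemic cells, 0 and 0 in regular cells, 1 for MK25 against VX745, and 1 and 2 for the interactions of VX745 and MK25. With at least 1.5 it was 2 and 3 for VX745 and MK25 in ischemic cells, 0 and 0 in regular cells, 3 for MK25 against VX745, and 1 and 2 for the interactions. In regular cells, VX745 changed 0 members with no variance trend, with voom or with only the groups compared, and MK25 changed 0 with quantile normalization, no trend or only the groups compared. The interaction of VX745 passed for 1 member with quantile normalization. The cause was not tested. With 1 library left out, which leaves a lone library that is assumed to vary like the other groups, the counts ranged over 5 to 7, 6 to 7, 5 to 6 and 3 to 4 for ischemia in that order, 5 to 7 and 4 to 5 for VX745 and MK25 in ischemic cells, 0 to 1 for each in regular cells, 4 to 5 for MK25 against VX745, and 1 to 3 and 3 to 4 for the interactions.

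The sign turned for 16 differences that had not passed the test. With quantile normalization these were *BTC* for ischemia with MK25 (−0.158), *EGF* for MK25 in ischemic cells (−0.147), and the interactions of *TGFA* with VX745 (0.0535) and MK25 (0.192) and of *EGFR* with MK25 (0.0249). With each library left out in turn, the lowest and highest values were −0.0657 to 0.27 for *HBEGF* under ischemia with DMSO, −0.111 to 0.0865 for *ERBB3* and −0.438 to 0.511 for *BTC* under ischemia with MK25, −0.0096 to 0.0832 for *TGFA* and −0.105 to 0.271 for *EGF* with MK25 in ischemic cells, −0.0969 to 0.273 for *EGF*, −0.572 to 0.394 for *BTC*, −0.0052 to 0.247 for *EGFR* and −0.776 to 0.0641 for *EREG* with VX745 in regular cells, −0.304 to 0.646 for *BTC* and −0.0659 to 0.132 for *ERBB3* with MK25 in regular cells, −0.644 to 0.172 for *EREG* with MK25 against VX745, and −0.126 to 0.823 for the interaction of *BTC* with MK25.

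The replicate numbers were not taken to pair libraries, since same-numbered libraries deviated together with a correlation of −0.27 to 0.33 over 15 pairs of groups in the second experiment and of 0.27 in the only pair of the first. The fit with a replicate block gave 7 changed members for ischemia in the first experiment and 7 with DMSO, as without it, and 3 in place of 2 for the interaction of VX745, since *TGFA* (−0.26) then passed at an adjusted p of 0.0462. It changed no other call. Depth limits *EREG* (6 to 58 reads) and *BTC* (12 to 51 reads) most.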
